A study of Mus musculus with 32 samples.

Results

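Macrophages of the WT line that had received the growth factor CSF-1 for 180 min were compared with macrophages of the same line to which none had been given back (0 min). The 4 arrays were chosen by their titles, 2 at each time and numbered I and II in the labels, out of 32 arrays in the series. The line carries the prefix M-/- in its name; such lines are known as macrophages without their own CSF-1 receptor gene, to which a receptor was returned, here the WT form. Whether it is a clone is not given in the labels. At 0 min the cells had been starved of CSF-1 overnight, and at 180 min they had been starved overnight and then given human recombinant CSF-1 (120 ng/mL) for 180 min. The medium of all groups was α-MEM plus newborn calf serum and antibiotics. Further groups used below, each of 2 arrays, were the WT line after 20 and 60 min of CSF-1, and the Y721F line, whose receptor lacks Tyr-721, at 0 and 180 min. A separate experiment supplied WT cells starved of CSF-1 and WT cells grown in it continuously. The series' design text calls arrays I and II biological replicates.

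CSF-1 is the main growth and survival factor of macrophages. Its receptor, a tyrosine kinase encoded by Csf1r, signals through the ERK and the PI3K and AKT pathways, among others. ERK switches on immediate early genes together with its own brakes, and AKT keeps FOXO factors, which drive genes of starvation and growth arrest, out of the nucleus. Returning CSF-1 to starved macrophages is known to bring them from rest back toward growth and division.

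The arrays read macrophages. Of 17 macrophage identity genes, 10 lay above the 80th percentile of all genes' signal, and the list's median signal stood at percentile 94.8. Csf1r read 13.25 and 13.07 at 0 min and 13.26 and 13.22 at 180 min (log2 signal, series I and II in this order throughout), a difference of 0.08 (SE 0.12) that was not called. As a receptor was returned to this line, the signal may come from the returned gene, so it says little on cell identity or on regulation of Csf1r. Where the probe set lies relative to Tyr-721 was not checked. Lymphocyte markers lay at a median percentile of 18.7, with all 10 below the median gene and array means between 4.75 and 4.79. Granulocyte and mast cell markers lay at 20.5 (14 of 15 below the median gene, array means 4.91 to 4.98), dendritic markers at 35.5 (10 of 11, 5.52 to 5.65) and fibroblast markers at 44.5 (8 of 11, 5.82 to 5.87). Osteoclast markers, a related lineage, lay higher at 66.3, with 4 of 12 above the 80th percentile and array means from 7.65 to 7.93. Of these lists of other cell types, only the osteoclast markers, described below, had a called member. With a block for the series number, introduced below, 1 dendritic marker was called as well, Itgax at 0.59 (SE 0.41). Calls among the macrophage identity genes are also given below.

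A gene was called where limma's Benjamini-Hochberg adjusted p over 19938 genes was under 0.05 and its fold above 1.5, and "rose" and "fell" are used in that sense. Differences are in log2 units, 180 min minus 0 min, from 2 arrays per group, with the standard error (SE) of the fit. By this rule 431 genes were called, 2.16% of those tested: 275 rose (1.38%) and 156 fell (0.782%). The median rise was 1.08, or 2.11-fold, and 155 genes rose more than 2-fold and 27 more than 4-fold. The median fall was -0.91, with 55 genes more than 2-fold and 5 more than 4-fold lower. Over all genes the median difference was -0.005. Measured within series I and within series II, the called genes had median differences of 1.06 and 1.10 for the rises and -0.88 and -0.89 for the falls.

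The count depends on how the spread between arrays was estimated. A block for the series number leaves the differences unchanged, while omitting an array changes them too. Arrays I and II of the WT line stood apart in the same way at each time, and with the series number as a block 1557 genes were called, 923 higher (4.63%) and 634 lower (3.18%). All 275 rises and all 156 falls were among them. Without the block, a fit on the 8 WT arrays alone called 2 genes. When array 0 min I was omitted 6 calls were left, and 90, 163 and 8 when 0 min II, 180 min I and 180 min II were. Fosl1, Gprc5a, Il1rn, Plaur and Tubb6 were called in each of these 4. In what follows a call with the block is given wherever it differs. Counts with the block are to be set beside its own shares of all genes, 4.63% higher and 3.18% lower. The number of calls left without each array is given per gene group in the order just used.

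**Figure D1:**
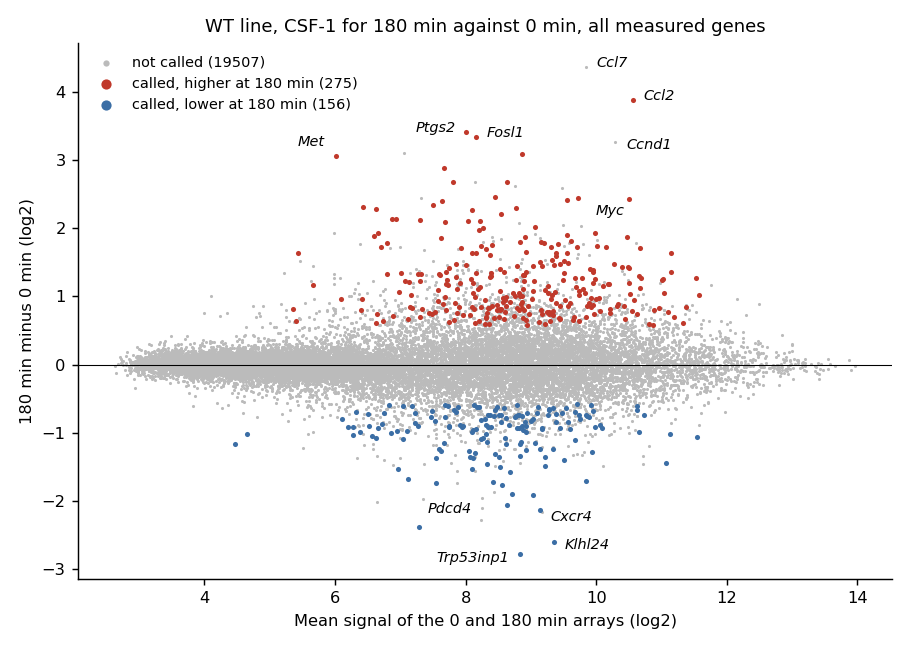
Difference between 180 and 0 min of CSF-1 (log2, vertical axis) against the mean signal of the 4 arrays (log2, horizontal axis) for the 19938 genes of the WT line; each point is a gene, red and blue mark the 275 called rises and 156 called falls. Ccl2 (3.88) and Trp53inp1 (-2.79) are the outermost called genes, and Ccl7, Ccnd1, Myc and Pdcd4 are named because their large differences were not called without the series block.

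Ccl2, a chemokine that draws monocytes, read 8.92 and 8.32 at 0 min and 12.68 and 12.31 at 180 min, a rise of 3.88 (SE 0.52), or 14.7-fold. Ptgs2, which makes the prostaglandin-forming enzyme COX-2, went from 6.37 and 6.24 to 10.27 and 9.17. Tm4sf1, a small membrane protein of the tetraspanin-like family, went from 7.64 and 7.0 to 10.63 and 10.18. Met, the receptor of hepatocyte growth factor, read 4.55 and 4.42 at 0 min, under the 20th percentile of all genes' signal (4.80), and 7.73 and 7.35 at 180 min, so its rise of 3.06 (SE 0.57) is read as a lower bound. For these 4 genes both 180 min arrays lay far above both 0 min arrays. Chst11, a chondroitin sulfotransferase, Fmnl2, an actin-nucleating formin, and Ehd2, a membrane-shaping ATPase, rose by 2.34 (SE 0.46), 2.21 (SE 0.41) and 2.13 (SE 0.39). Plk3, a polo-like kinase, rose by 2.27 (SE 0.36) and Gprc5a, an orphan receptor, by 2.29 (SE 0.21). Among these 9 genes Gprc5a kept its call without each of the 4 arrays, Ccl2 and Plk3 without 0 min II and without 180 min I, Ehd2 without 180 min I alone and the others in no such fit.

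**Figure D2:**
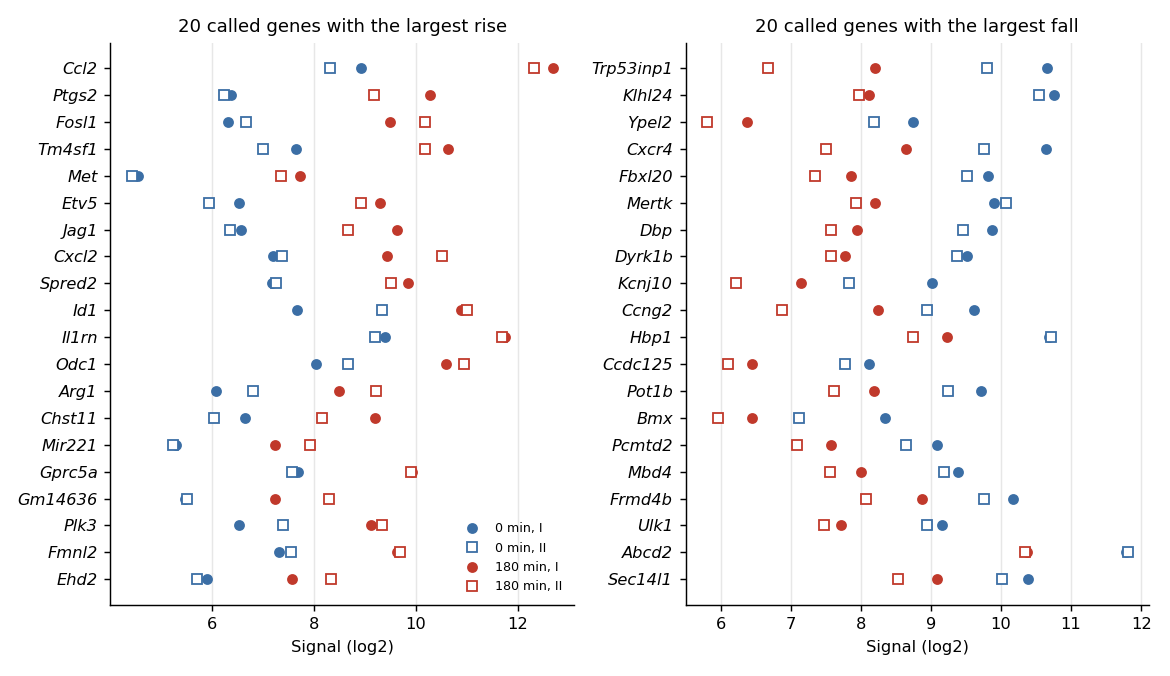
Log2 signal (horizontal axis) of each of the 4 arrays for the 20 called genes with the largest rise (left) and the largest fall (right); blue is 0 min, red is 180 min, filled circles are series I and open squares series II. In every row both red marks lie on the same side of both blue marks, as the rule for named genes requires; Ccl2 moves from 8.92 and 8.32 to 12.68 and 12.31.

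Of the early transcription factors (AP-1, EGR, NR4A, KLF and their partners), 3 of 26 rose at 180 min, 9 with the block, and 0 fell. Fosl1, an AP-1 subunit that follows Fos, went from 6.31 and 6.66 to 9.48 and 10.18, a rise of 3.35 (SE 0.31, adjusted p = 0.00116). Nab2 and Nab1, corepressors that bind and restrain EGR factors, rose by 1.10 (SE 0.19) and 0.73 (SE 0.14). Egr1 read 6.29 and 6.67 at 0 min and 7.10 and 7.11 at 180 min (0.62, SE 0.30, adjusted p = 0.366). Fos read 7.20 and 8.55, then 8.49 and 9.16, with overlapping groups (0.95, SE 0.37), and was called with the block (adjusted p = 0.036). Fosb and Nr4a1 differed by -0.11 (SE 0.34) and 0.50 (SE 0.34). The list's median difference was 0.42 at 180 min, beside 1.06 at 20 min and 1.05 at 60 min, all against the same 0 min arrays. Of the 3 calls 1, 1, 2 and 1 were left without each array.

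The direct comparison of 180 with 60 min called 5 genes (0.0251%), and 3 of the 4 that fell were in the list of early factors. Nr4a1, an orphan nuclear receptor, fell from 10.88 and 11.16 at 60 min to 7.20 and 7.57, by 3.63 on the log2 scale (SE 0.34, adjusted p = 0.0052). Egr1 fell from 9.59 and 10.06 to 7.10 and 7.11 (-2.72, SE 0.30), and Fosb from 8.44 and 8.99 to 5.89 and 5.64 (-2.95, SE 0.34). Ppard, a fatty acid-sensing nuclear receptor, fell by 1.04 on the log2 scale (SE 0.14, adjusted p = 0.0499). Bcl6, a transcriptional repressor, was the 1 gene that rose, from 8.23 and 8.09 to 9.43 and 9.33 (1.22, SE 0.13). Against 0 min the same gene measured 0.47 (SE 0.13), uncalled. With the block 52 genes were called, 9 higher and 43 lower. Omitting 60 min I gave 10 calls. By limma 0 were left on omitting 60 min II (1086 genes under an unadjusted p of 0.05), 180 min I (1088 genes) or 180 min II (592 genes).

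**Figure D3:**
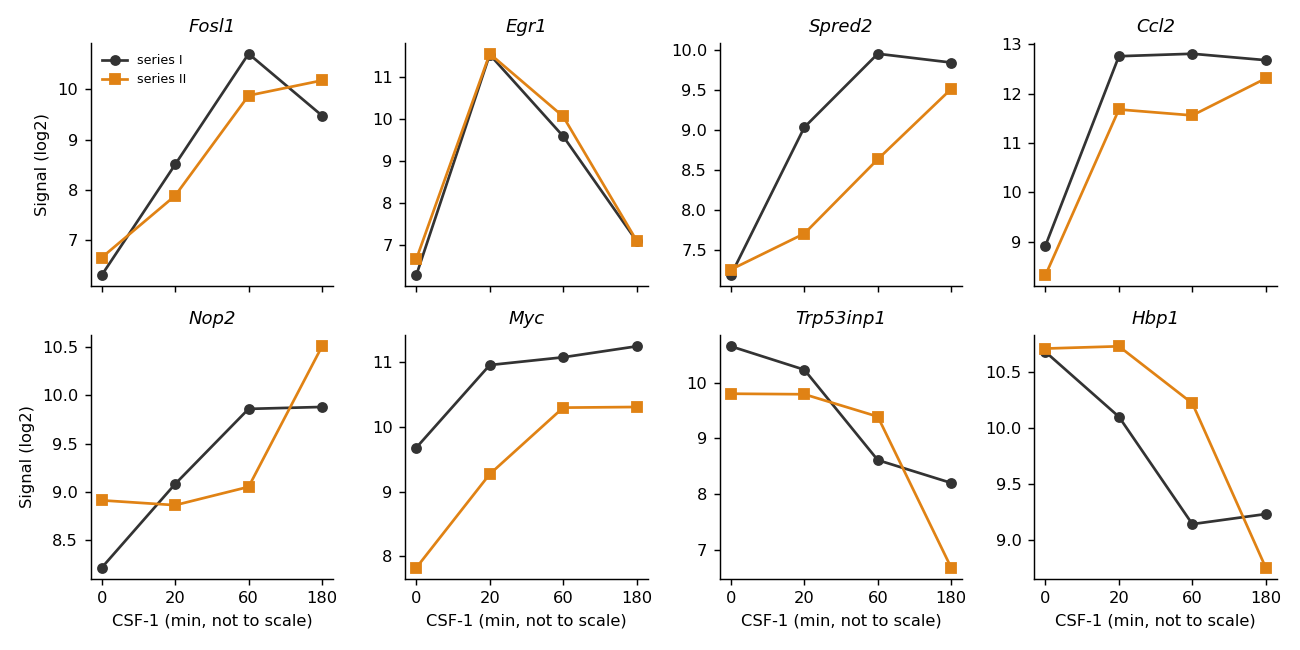
Log2 signal (vertical axis, own range in each panel) of 8 genes of the WT line at 0, 20, 60 and 180 min of CSF-1 (horizontal axis, times not to scale), black circles for series I and orange squares for series II. Egr1 peaks at 20 min and is at 7.10 and 7.11 by 180 min, Fosl1, Spred2, Ccl2 and Myc lie above their 0 min signal at every later time in both series, and Trp53inp1 and Hbp1 are lowest at 180 min in series II.

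Some brakes of the ERK pathway were called at 180 min. Of 18 DUSP phosphatases, Sproutys, Spreds and related genes 5 rose, 8 with the block, and 0 fell. Spred2 and Spred1, which block the step from Ras to Raf, rose by 2.46 (SE 0.42) and 1.64 (SE 0.26). Spred2 read 7.18 and 7.25 at 0 min and 9.84 and 9.51 at 180 min. Dusp4 and Dusp5, phosphatases that switch ERK off in the nucleus, rose by 1.89 (SE 0.30) and 1.60 (SE 0.35). Phlda1, a growth factor-induced gene placed in this list, rose by 2.12 (SE 0.43). The classical Sproutys did not follow: Spry1 read 6.32 and 6.12, then 6.25 and 6.25 (0.03, SE 0.16), and Spry2 5.53 and 5.44, then 5.82 and 5.95 (0.40, SE 0.20), both uncalled. The list's median was 0.49 at 180 min, beside 0.44 at 20 min and 1.055 at 60 min, all against the same 0 min arrays. ETS factors, which act on genes downstream of ERK, had 3 of 15 rise, also with the block. They were Etv5 at 2.88 (SE 0.63), Ets2 at 1.54 (SE 0.26) and Elk3 at 0.85 (SE 0.20). Of the 5 calls among the brakes 0, 0, 2 and 0 were left without each array, and of the 3 ETS calls none.

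Of 22 chemokines 2 rose, 5 with the block, beside 1.38% of all genes that rose. Besides Ccl2 this was Cxcl2, which attracts neutrophils and read 7.20 and 7.38, then 9.44 and 10.51 (2.69, SE 0.47). Ccl7, a monocyte chemokine encoded near Ccl2, had the largest difference of any gene at 4.37 (SE 1.02), from 8.17 and 7.14 to 12.57 and 11.47. It was not called (adjusted p = 0.0507, with the block 3.3e-05), and it is given here after its value was seen. Of 30 cytokines and growth factors 4 rose, 9 with the block. Il1rn, the natural blocker of the interleukin-1 receptor, went from 9.39 and 9.19 to 11.75 and 11.68, a rise of 2.42 (SE 0.17, adjusted p = 0.000237). Jag1, a Notch ligand, rose by 2.69 (SE 0.59), Tnf, an inflammatory cytokine, by 1.94 (SE 0.41), and Lif, a cytokine of the interleukin-6 family, by 0.64 (SE 0.14). Tnf read 8.62 and 9.40, then 10.36 and 11.53. Other inflammatory cytokines did not stand out at this time. Il1b read 5.80 and 6.46, then 6.03 and 7.09, with overlapping groups (0.43, SE 0.43), although it had measured 3.76 at 20 min against the same 0 min arrays. Il6 lay at 3.10 and 3.11, then 3.10 and 3.07, among the dimmest genes. The calls left without each array were 0, 1, 2 and 0 of the 2 chemokines and 1, 1, 2 and 1 of the 4 cytokines.

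Receptors and surface proteins changed in both directions. Of 27 growth factor receptors 2 rose and 1 fell, and with the block 2 and 3. Beside Met, Acvr1, a receptor of the BMP and activin family, rose by 0.81 (SE 0.18). Mertk, through which macrophages take up dying cells, fell from 9.90 and 10.07 to 8.20 and 7.93 (-1.92, SE 0.26). Of 17 chemoattractant receptors Cxcr4, the receptor of CXCL12, was the 1 called. It fell from 10.64 and 9.76 to 8.64 and 7.50 (-2.13, SE 0.42), and with the block 3 rose and 4 fell. Of 17 Toll-like receptor pathway genes 1 rose and 2 fell, 1 and 3 with the block. The rise was Cd14, the coreceptor for lipopolysaccharide, at 1.27 (SE 0.19), while Tlr8 and Tlr6 fell to -1.01 (SE 0.19) and -0.74 (SE 0.17). Il10ra, the ligand-binding chain of the interleukin-10 receptor, fell to -1.28 (SE 0.29), the 1 call among 14 genes of SOCS proteins and the interleukin-10 axis (0 rises and 2 falls with the block). Rgs2, which dampens G-protein signals, fell to -1.06 (SE 0.24), the 1 call among 19 purinergic and RGS genes (2 rises and 3 falls with the block). Without each array 0, 1, 1 and 0 of the 3 growth factor receptor calls were left, and the same of the 3 Toll-like receptor pathway calls. For Cxcr4 and for Rgs2 the call held without 180 min I alone, and for Il10ra in none of the 4.

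Some adhesion, cytoskeletal and protease genes rose, beside 1.38% of all genes, or 4.63% with the block. Of 27 adhesion and cytoskeleton genes 4 rose, 7 rises and 1 fall with the block. After Tm4sf1 these were Vcl, which links integrins to actin, from 8.13 and 8.38 to 9.86 and 10.25 (1.80, SE 0.20), Rhob, a small GTPase, at 1.45 (SE 0.22), and Cd44, a hyaluronan receptor, at 1.05 (SE 0.17). Tubb6, a beta-tubulin, had a small error and rose by 1.36 (SE 0.12), from 10.52 and 10.42 to 11.85 and 11.81. In the urokinase and matrix protease list 2 of 20 rose, and with the block 6 rose and 1 fell. Plaur, the urokinase receptor, went from 8.90 and 8.50 to 10.46 and 10.58, a rise of 1.82 (SE 0.17, adjusted p = 0.00126), and F3, tissue factor, rose by 0.81 (SE 0.14). Plau, urokinase itself, measured 2.69 (SE 0.71), uncalled (adjusted p = 0.0751, with the block 0.00042), and is named after its value was seen. Of 14 eicosanoid genes Ptgs2 alone rose, 2 rises and 2 falls with the block. Tnfrsf11a, the receptor RANK, rose by 0.94 (SE 0.17), the 1 call among 12 osteoclast markers (3 rises with the block), left without 180 min I alone. The calls left without each array were 0, 2, 2 and 1 of the 4 adhesion genes, 1, 1, 2 and 1 of the 2 protease genes, and none for Ptgs2.

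The array also has probe sets for microRNA genes, and of 291 named Mir genes 2 rose and 1 fell, 7 and 3 with the block. Of all genes 1.38% rose and 0.782% fell, 4.63% and 3.18% with the block, so Mir genes were not called more often than genes in general. The 2 that rose are neighbours on chromosome X, and their mature 3p arms share the seed (bases 2 to 8, in capitals) that pairs with target messages. They are printed 5′ to 3′ from RefSeq (build GRCm38.p6, minus strand, chrX:19146307-19146329 and chrX:19146901-19146923):
mmu-miR-221-3p: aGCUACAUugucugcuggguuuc
mmu-miR-222-3p: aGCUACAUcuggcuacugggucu
Both have the seed GCUACAU. Mir221 read 5.29 and 5.24 at 0 min and 7.24 and 7.92 at 180 min, a rise of 2.31 (SE 0.27, adjusted p = 0.00428). Mir222, named after its value was seen, read 4.46 and 4.76, then 5.94 and 6.56 (1.64, SE 0.32), a lower bound since both 0 min signals lie under the 20th percentile. Gm14636, a long noncoding RNA gene that RefSeq places within 60 kb of both, rose too, from 5.46 and 5.50 to 7.23 and 8.30 (2.29, SE 0.51). At 20 min the 3 genes had measured 1.50, 1.20 and 1.25 against the same 0 min arrays. Mir687 fell to -1.16 (SE 0.17), at a signal below the 20th percentile of all genes. Where these probe sets lie relative to the hairpins and to Gm14636 could not be checked. Whether the neighbours were read as separate transcripts is therefore not known, and the signals are not taken as levels of the mature arms. Mir221 kept its call without 0 min II and without 180 min I, Mir222 and Mir687 without 180 min I alone, and Gm14636 in no such fit.

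Ribosome biogenesis had more calls than any other of the 42 gene lists drawn up first. Of 35 ribosome biogenesis genes 12 rose and 0 fell, and with the block 31 rose. In 34 of the 35 both 180 min arrays lay above both 0 min arrays, against 22.1% of all genes, and the list's median difference was 1.21. By comparison 1.38% of all genes rose. Rrs1, needed to assemble the large subunit, went from 5.79 and 5.94 to 7.86 and 8.13 (2.13, SE 0.49). Tsr1, a small-subunit maturation factor, went from 7.06 and 7.27 to 9.31 and 9.24 (2.11, SE 0.41). Nop58, a core protein of box C/D particles that guide methylation of ribosomal RNA, rose by 1.87 (SE 0.34). Gnl3 (nucleostemin), a nucleolar GTPase, rose by 1.80 (SE 0.40), and Ddx21, a nucleolar RNA helicase, by 1.73 (SE 0.32). The list's median was 0.41 at 20 min and 0.79 at 60 min, against the same 0 min arrays. Of the 12 calls 0, 1, 1 and 0 were left without each array.

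Assembly lines for both subunits were then listed in more detail, after these values were known. Beside them, 1.38% of all genes rose, and 4.63% with the block. Of 35 genes of the small-subunit processome 14 rose, 30 with the block, and 0 fell (median 0.76). In all 35 both 180 min arrays lay above both 0 min arrays, against 22.1% of all genes. Wdr43 rose by 1.60 (SE 0.37), Heatr1 by 1.45 (SE 0.22), Wdr75 by 1.45 (SE 0.31), Utp4 by 1.39 (SE 0.29) and Pwp2 by 1.34 (SE 0.28), all of them scaffold or assembly proteins of the early particle. Of 36 large-subunit assembly genes 12 rose, 26 with the block, and 0 fell (median 0.81). Gtpbp4 and Grwd1 led at 1.78 (SE 0.25) and 1.71 (SE 0.37), followed by Nifk at 1.41 (SE 0.27), Urb2 at 1.23 (SE 0.28) and Urb1 at 1.19 (SE 0.22). The proteins of the finished ribosome did not move with them: of 67 Rpl and Rps genes 1 rose, Rpl12 at 1.74 (SE 0.35), and the median was -0.035 (3 rises and 2 falls with the block). Small nucleolar RNAs of the C/D type had 5 of 31 rise, Snord52 most at 1.93 (SE 0.32), and 8 with the block. These RNAs lie in introns of host genes, so a probe set may also read the host's transcript. Of 20 H/ACA type genes 0 rose, and 6 with the block, with a median of 0.52. Without each array 0, 1, 5 and 0 of the 14 small-subunit calls and 0, 2, 4 and 0 of the 12 large-subunit calls were left, and Snord52 kept its call without 180 min I alone. Rpl12 and Snord52 are named after their values were seen, and the call of Rpl12 was lost in all 4 fits.

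The supply of tRNA and translation factors followed in part. Among 20 RNA polymerase III genes, also listed after their values were known, 5 rose and 1 fell, and with the block 6 and 2. Polr3g, Polr3d, Polr3e and Crcp, subunits of the enzyme, rose by 1.32 (SE 0.30), 1.17 (SE 0.21), 0.93 (SE 0.20) and 0.67 (SE 0.11). The fall was Maf1, the repressor of this polymerase, from 10.18 and 10.02 to 9.46 and 9.26 (-0.74, SE 0.16). Of 42 tRNA-modifying genes, listed in the same way, 9 rose and 1 fell, 17 and 2 with the block. They were led by Trmt61a, a tRNA methyltransferase, from 6.56 and 6.84 to 8.35 and 8.77 (1.86, SE 0.29). Kti12, Rpp38 and Qtrt2 rose by 1.43 (SE 0.30), 1.27 (SE 0.21) and 1.22 (SE 0.25), and Cdk5rap1, which modifies mitochondrial tRNAs, fell to -1.24 (SE 0.21). Of 20 tRNA synthetases Rars rose (1.24, SE 0.21), 6 with the block. Of 19 translation factors 2 rose, Eif1a at 1.01 (SE 0.22) and Eif4a3 at 0.88 (SE 0.19), and with the block 7 rose and 2 fell. Of 24 chaperones 0 were called and 10 rose with the block, beside 4.63% of all genes. Among these 10 was Cct3, a chaperonin subunit, at 0.96 (SE 0.28, limma adjusted p = 0.104, with the block 0.0081). Without each array 0, 0, 2 and 0 of the 6 polymerase III calls, 0, 1, 3 and 0 of the 10 tRNA-modifying calls and 0 of the other calls in this paragraph were left.

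Of 12 genes of arginine and polyamine metabolism 2 rose, and with the block 7 rose and 1 fell (median 0.83). Odc1, the enzyme that commits ornithine to polyamines, went from 8.03 and 8.66 to 10.59 and 10.94 (2.42, SE 0.36), and Arg1, which makes that ornithine from arginine, from 6.08 and 6.80 to 8.48 and 9.21 (2.40, SE 0.31). Of 27 sterol and fatty acid synthesis genes 4 rose, 9 with the block, all in the sterol branch. Sqle, the squalene epoxidase, rose by 1.74 (SE 0.28), Cyp51, the sterol demethylase, by 1.64 (SE 0.29), Msmo1 by 1.48 (SE 0.28) and Hsd17b7 by 1.35 (SE 0.25). Cad, which starts pyrimidine synthesis, rose by 1.31 (SE 0.26), the 1 call among 23 nucleotide synthesis genes, of which 10 rose with the block. Uck2, a salvage kinase for uridine and cytidine, rose by 1.91 (SE 0.37). Among 19 nutrient transporters Slc2a1, the glucose carrier, rose by 1.64 (SE 0.33) and Slc38a9, a lysosomal arginine sensor, fell to -0.59 (SE 0.13), with 6 rises and 2 falls with the block. In the glycolysis and hypoxia list Hilpda, a lipid droplet protein, rose by 2.0 (SE 0.39) and Pfkm, a phosphofructokinase, fell to -0.76 (SE 0.17), 2 of 22 called and 2 each way with the block. Without each array 0, 2, 2 and 0 of the 2 polyamine calls, 0, 0, 3 and 0 of the 4 sterol calls and 0, 1, 0 and 0 of the 2 glycolysis and hypoxia calls were left, and none of the nucleotide and transporter calls.

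Promoters of these genes were read for short motifs, over 250 bases before to 50 after each RefSeq start. The letters searched on both strands were CACGTG (E-box, bound by MYC and related factors), CCGGAAG (ETS), TGANTCA (AP-1) and TGTTTAC (FOXO), and no motif contains another. The E-box letters occurred in 8.24% of promoters of all measured genes, 15.9% of those of genes that rose, 8.64% of those of genes that fell. In lists the share was 16.7% for ribosome biogenesis, 32.3% for the small-subunit processome (listed after values were known) and 21.9% for FOXO and starvation genes, of which 4 fell and 0 rose. For the ETS letters these shares were 12.1%, 17.7% and 11.7%, then 36.1%, 41.9% and 6.25%. The AP-1 letters stood at 6.90%, 7.75% and 5.56% in the first 3 groups and at 0 of 31 promoters of the processome. Several starts of a gene count separately in these shares. Counted per gene, the AP-1 letters stood at 8.08%, 8% and 7.14% in those 3 groups. The E-box letters stood at 9.50%, 16.9% and 11.1% per gene, and at 28.6% in the processome. The FOXO letters stood at 3.01%, 1.48% and 3.09%, and at 18.8% in the list of FOXO and starvation genes, which was drawn up around such targets. A match is a description of the sequence and not a site of binding. The 250 bases before the start are shown for 2 ribosome assembly genes with an E-box, Nop2 (a ribosomal RNA methyltransferase, up by 1.64, SE 0.31) and Nmd3 (the export adaptor of the large subunit, up by 1.15, SE 0.19). Both were chosen after their values were seen. Met, Il1rn and Plaur are shown as genes that hold the AP-1 letters, and Hbp1, described below, for the FOXO letters. Other starts of Il1rn do not hold the AP-1 letters. Counted per gene, these letters were no more frequent among rises than among all genes. The motif for which a gene is shown is in capitals, the order is 5′ to 3′ on the gene's strand, and the build is GRCm38.p6. In lower case, the sequence of Met also holds the E-box letters and that of Nop2 the ETS letters.
Nop2 (chr6:125131633-125131882, plus strand): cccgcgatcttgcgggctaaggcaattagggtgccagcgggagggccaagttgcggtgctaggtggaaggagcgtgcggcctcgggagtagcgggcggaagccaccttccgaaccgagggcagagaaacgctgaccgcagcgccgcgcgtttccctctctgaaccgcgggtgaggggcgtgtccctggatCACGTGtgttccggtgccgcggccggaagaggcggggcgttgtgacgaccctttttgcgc
Nmd3 (chr3:69721805-69722054, plus strand): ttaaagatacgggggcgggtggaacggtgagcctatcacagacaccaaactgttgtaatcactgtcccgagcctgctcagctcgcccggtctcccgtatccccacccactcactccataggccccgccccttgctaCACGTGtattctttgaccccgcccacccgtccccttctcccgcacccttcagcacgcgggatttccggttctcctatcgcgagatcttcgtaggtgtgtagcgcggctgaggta
Met (chr6:17463707-17463956, plus strand): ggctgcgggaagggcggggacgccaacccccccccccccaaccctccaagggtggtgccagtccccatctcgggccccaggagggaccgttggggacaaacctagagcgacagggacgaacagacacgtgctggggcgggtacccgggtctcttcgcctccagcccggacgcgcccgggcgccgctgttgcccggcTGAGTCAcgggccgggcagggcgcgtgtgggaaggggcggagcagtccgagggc
Il1rn (chr2:24336610-24336859, plus strand): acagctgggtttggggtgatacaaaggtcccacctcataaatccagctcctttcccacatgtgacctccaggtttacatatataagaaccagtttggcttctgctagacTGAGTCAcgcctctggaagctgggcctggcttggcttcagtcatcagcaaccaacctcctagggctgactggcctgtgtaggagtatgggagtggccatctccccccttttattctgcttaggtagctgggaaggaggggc
Plaur (chr7:24462233-24462482, plus strand): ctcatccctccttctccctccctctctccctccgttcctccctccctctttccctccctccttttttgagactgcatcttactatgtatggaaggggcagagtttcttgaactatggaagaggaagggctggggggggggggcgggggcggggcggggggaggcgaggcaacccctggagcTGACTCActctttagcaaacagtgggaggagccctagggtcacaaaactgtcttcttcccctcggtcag
Hbp1 (chr12:31950246-31950495, minus strand): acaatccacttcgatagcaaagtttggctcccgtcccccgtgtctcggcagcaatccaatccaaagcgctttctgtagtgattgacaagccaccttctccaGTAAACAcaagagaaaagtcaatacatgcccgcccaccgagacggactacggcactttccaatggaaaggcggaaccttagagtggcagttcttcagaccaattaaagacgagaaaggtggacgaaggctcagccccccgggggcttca

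Myc itself and Ccnd1 had large differences that were called with the block and not without it. Myc read 9.68 and 7.82 at 0 min and 11.25 and 10.31 at 180 min, a difference of 2.03 (SE 0.64, adjusted p = 0.131, with the block 0.00082). Ccnd1, cyclin D1, read 9.20 and 8.11, then 12.43 and 11.42 (3.27, SE 1.07, adjusted p = 0.146, with the block 0.0032). In both genes series I read higher than series II at each time, and both series read higher at 180 than at 0 min. Of 21 G1 genes 0 rose and 2 fell without the block, and 5 rose and 2 fell with it. Of 12 genes of the MYC network 1 fell, Mxd1, a partner of MAX that opposes MYC, from 9.23 and 8.99 to 7.83 and 7.77 (-1.31, SE 0.24), and with the block 1 rose and 2 fell. Genes of S phase and division had no called rise by 180 min. As 1.38% of all genes rose, 0 rises in lists of this size lies near that share. Of 24 DNA replication genes 0 were called with or without the block, with a median of -0.078 and Cdc45 at -0.47 (SE 0.24). Of 19 mitotic genes 0 were called and 1 fell with the block, Nusap1, a spindle protein, at -0.61 (SE 0.26). The list's median was -0.29, and Bub1b, a spindle checkpoint kinase, measured -0.57 (SE 0.27). Of the 2 falls in G1 genes 0, 1, 1 and 0 were left without each array, and the call of Mxd1 in none of the 4.

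**Figure D4:**
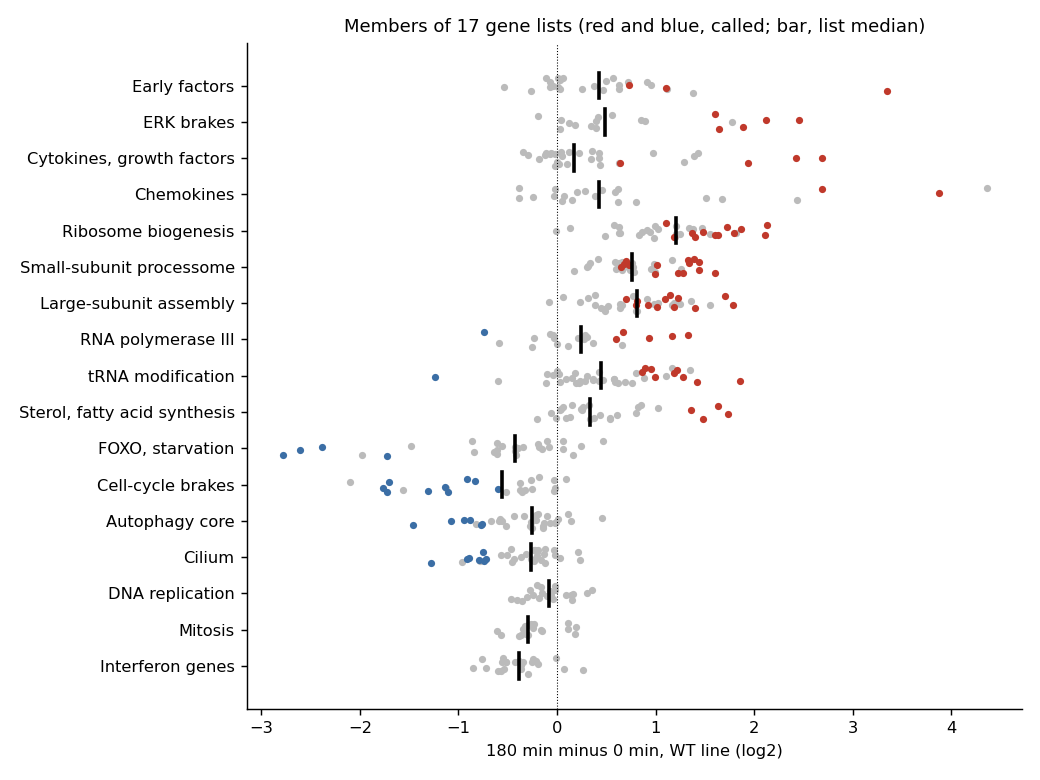
Difference between 180 and 0 min in the WT line (log2, horizontal axis) for the measured members of 17 gene lists (rows); each point is a gene, red and blue are called rises and falls, grey is uncalled, and the bar is the list's median. Ribosome biogenesis (median 1.21) and both subunit assembly lists (0.76 and 0.81) lie to the right, cell-cycle brakes (-0.56) and FOXO and starvation genes (-0.43) to the left, and DNA replication (-0.078) near 0.

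The 3 largest falls among called genes were in genes linked to starvation and growth arrest. Of 28 genes linked to FOXO factors and starvation 0 rose and 4 fell, 10 with the block (median -0.43), beside 0.782% of all genes that fell. Trp53inp1, a stress gene that acts in autophagy and cell death, read 10.65 and 9.80 at 0 min and 8.20 and 6.68 at 180 min (-2.79, SE 0.46), or 6.89-fold lower. Klhl24, a substrate adaptor of a ubiquitin ligase, fell from 10.76 and 10.54 to 8.12 and 7.97 (-2.60, SE 0.42). Ypel2 fell from 8.75 and 8.19 to 6.38 and 5.80 (-2.38, SE 0.40). Ccng2, an atypical cyclin that slows the cell cycle, fell from 9.62 and 8.95 to 8.25 and 6.87 (-1.73, SE 0.37). In these 4 genes series II was the lower at both times. The list's median was -0.083 at 20 min and -0.28 at 60 min against the same 0 min arrays. Without each array 0, 2, 3 and 0 of the 4 calls were left. In bulk RNA, fewer cells with a message and less of it per cell cannot be told apart.

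A list of cell-cycle brakes was drawn up after its values were known, so its count describes the choice as well. Of 24 such genes 9 fell, 12 with the block, and 0 rose (median -0.56). Besides Ccng2 and Mxd1, Dyrk1b, a kinase that keeps cells quiescent, fell from 9.52 and 9.37 to 7.77 and 7.58 (-1.77, SE 0.38). Hbp1, a transcriptional repressor of cycle genes, fell from 10.68 and 10.71 to 9.23 and 8.75 (-1.71, SE 0.30). Rbl2, a relative of the retinoblastoma protein, and Cdkn1b, the inhibitor p27, fell to -1.14 (SE 0.25) and -1.10 (SE 0.21). Pdcd4, which holds back translation initiation, read 9.51 and 9.11, then 7.20 and 7.21 (-2.10, SE 0.52, adjusted p = 0.0584, with the block 0.0048), so it was not called without the block although the groups lay far apart. In the family of BCL2, listed in the same way, Bcl2l1, the survival protein BCL-XL, rose from 7.36 and 7.09 to 9.32 and 9.07 (1.97, SE 0.27), and Bid, a death-promoting member, by 0.73 (SE 0.17), 2 of 14 called. With the block 3 of the family rose and 2 fell. Of 15 p53 targets 1 rose, Aen at 1.06 (SE 0.22), and 1 fell, Trp53inp1, with 2 each way with the block. Without each array 0, 1, 4 and 0 of the 9 brakes, 0, 1, 1 and 0 of the 2 BCL2 family calls and 0, 1, 1 and 0 of the 2 p53 calls were left.

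Some genes of autophagy fell, among them kinases that start it. Of 32 core autophagy genes, listed after their values were known, 6 fell, 8 with the block, and 0 rose (median -0.26). Ulk1, the initiating kinase, fell from 9.16 and 8.94 to 7.71 and 7.47 (-1.46, SE 0.32). Rb1cc1, its scaffold FIP200, fell to -0.89 (SE 0.18), and Pik3c3, the lipid kinase VPS34, to -0.77 (SE 0.13). Atg4c, a protease that processes the ATG8 proteins, fell to -1.07 (SE 0.19), and Nbr1, a cargo receptor, to -0.94 (SE 0.15). The lysosome and autophagy list, made of lysosomal enzymes and membrane proteins for the most part, had 2 of 27 fall, also with the block, Ulk1 and Atg4c, with a median of -0.13. Of the 6 core calls 0, 0, 4 and 0 were left without each array.

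Genes of the primary cilium and of the circadian clock were among the other falls, both listed after their values were known. Of 33 cilium and centrosome genes 7 fell, 9 with the block, and 0 rose (median -0.27). Wdr19, a protein of retrograde transport in cilia, fell from 8.43 and 8.09 to 6.97 and 7.0 (-1.27, SE 0.27), and Tctn3, Cep72, C2cd3 and Ift46 fell by between 0.76 and 0.91 on the log2 scale. Of 17 clock genes Dbp, an output factor of the clock, fell from 9.87 and 9.45 to 7.95 and 7.57 (-1.90, SE 0.33), and Nr1d2, a REV-ERB repressor, to -0.74 (SE 0.16). With the block 2 clock genes rose and 5 fell. Outside the lists, Fbxl20, an F-box protein, Kcnj10, a potassium channel, and Pot1b, a telomere-binding protein, fell to -2.06 (SE 0.41), -1.74 (SE 0.38) and -1.58 (SE 0.31). Mbd4, a DNA glycosylase, fell to -1.50 (SE 0.27), Frmd4b, a scaffold protein, to -1.49 (SE 0.28), and Abcd2, a peroxisomal fatty acid carrier, from 11.78 and 11.81 to 10.37 and 10.34 (-1.44, SE 0.27). Pcmtd2 and Sec14l1 fell to -1.53 (SE 0.25) and -1.40 (SE 0.22). Of these 8 genes Kcnj10, Pcmtd2 and Sec14l1 kept their calls without 0 min II and without 180 min I, Mbd4 and Frmd4b without 180 min I alone and the others in no such fit. The calls left without each array were 0, 1, 2 and 0 of the 7 cilium genes and 0, 0, 1 and 0 of the 2 clock genes.

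Several macrophage programmes had few or no calls. As 2.16% of all genes were called, a count of 0 without the block lies near that share in lists of this size. With the block 4.63% of all genes rose and 3.18% fell. Of 17 macrophage identity genes Cd14 rose and Mertk fell (1 and 2 with the block, median -0.20), and Irf8, a lineage factor, read 10.32 and 9.56, then 9.59 and 8.77 (-0.76, SE 0.31, with overlapping groups, adjusted p = 0.274, with the block 0.018). Of the 23 interferon response genes 0 were called and 2 fell with the block. Among the 23, 21 lay below 0, with a median of -0.39 beside -0.005 over all genes. Mx2 measured -0.85 (SE 0.59). Of 8 MHC class II genes 0 were called and 1 fell with the block, Ciita, their transactivator, at -0.80 (SE 0.28, with the block adjusted p = 0.016). Of 10 LXR and sterol efflux genes 0 were called and 2 fell with the block, Abcg1, a cholesterol exporter, at -1.46 (SE 0.43) and Mylip at -1.36 (SE 0.45). Of 14 NF-kappaB genes 0 were called and 2 rose with the block, among them Nfkbia at 0.88 (SE 0.39), and of 22 stress response genes 0 were called and 3 rose with the block, Atf4 at 0.74 (SE 0.18, adjusted p = 0.0523, with the block 0.013) among them. Of 25 genes listed with scavenger, Fc, complement and apoptotic cell receptors 0 were called. With the block 1 rose and 1 fell, the fall being Clec2d at -1.20 (SE 0.32). Mertk, an uptake receptor that fell, was placed in other lists and is not among these 25. Of 14 TGF-beta and ID genes Id1, an inhibitor of differentiation factors, rose from 7.67 and 9.33 to 10.88 and 11.00 (2.44, SE 0.52), 2 with the block, and its call held without 0 min II alone.

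Arrays that share no RNA with these 4 give the called genes a second reading, in the Y721F line after the same treatment. There 34 genes rose (0.171%) and 18 fell (0.0903%) at 180 min against 0 min. Of the 275 genes that rose in WT, 27 rose in Y721F, 9.82% of the WT rises and 79.4% of the Y721F rises. Of the 156 that fell, 14 fell, 8.97% and 77.8% of each list. With the block 528 genes rose (2.65%) and 546 fell (2.74%) in Y721F, and they held 195 of the WT rises (70.9%) and 104 of the WT falls (66.7%). All 275 rises and 155 of the 156 falls had the same sign in Y721F, with medians of 0.82 and -0.73. Since the genes were chosen by their WT call, their WT differences are favoured. Fosl1 measured 3.12 in Y721F, Ccl2 3.13, Trp53inp1 -2.71 and Mertk -1.69, all called. The Y721F arrays enter the same fit and so share its estimate of spread.

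The difference between the 2 lines' responses was tested as its own contrast, and limma called 0 genes, with 277 at an unadjusted p under 0.05. With the block it also called 0, with 834. Receptor and line go together here, so that what differs by Tyr-721 and what differs otherwise between the lines cannot be told apart. Among genes called in WT, Arg1 had the widest gap. In Y721F it read 5.14 and 5.73 at 0 min and 5.43 and 5.92 at 180 min, a difference of 0.24 beside 2.40 in WT, so that the responses differed by -2.17 (SE 0.44, adjusted p = 1, with the block 0.091). Tm4sf1, Id1, Met and Uck2 followed on that side, at -1.85 (SE 0.69), -1.35 (SE 0.74), -1.28 (SE 0.81) and -1.12 (SE 0.52). The value of Met rests on 0 min signals of which 3 of 4 lie under the 20th percentile, so its size and place in that order are uncertain. Bmx, a kinase of the TEC family, fell in WT from 8.35 and 7.11 to 6.44 and 5.96, but read 4.15 and 4.43, then 4.30 and 4.37, in Y721F, where it lay below the 20th percentile of signal at both times. Its responses differed by 1.57 (SE 0.46, adjusted p = 1, with the block 0.329). Prdm1, the repressor BLIMP-1, fell by 1.01 (SE 0.20) in WT and measured -0.08 in Y721F (0.93, SE 0.29), and Ccdc125, Ipcef1 and Tnfrsf14 differed by 0.93 (SE 0.31), 0.82 (SE 0.25) and 0.70 (SE 0.30). All 4 Y721F signals of Ipcef1 lie under the 20th percentile, so the size of its difference is uncertain too.

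WT cells growing in CSF-1, set against starved WT cells on 4 other arrays, show which of the 180 min changes are found in continuous growth. In that comparison 459 genes rose (2.3%) and 601 fell (3.01%). Of the 275 genes up at 180 min, 98 were higher in growing cells, 35.6% of the first list and 21.4% of the second. Of the 156 down at 180 min, 61 were lower, 39.1% and 10.1%. None went the opposite way as a call, and 268 rises and 154 falls had the same sign. The medians were 0.65 and -0.57, beside 1.08 and -0.91 at 180 min. Of the 35 ribosome biogenesis genes 13 were higher in growing cells (median 1.08), and Arg1 (2.90), Ccl2 (3.02), Id1 (2.69) and Met (2.12) were called higher there. Ccnd1, uncalled at 180 min, was higher at 3.29. Other genes of the 180 min response were close to their starved level during growth: Il1rn measured 0.31, Vcl 0.07, Nab1 -0.01 and Lif 0.01, all uncalled. In growing cells Cxcr4 measured -3.10 and Mertk, Klhl24 and Trp53inp1 -1.78, -1.93 and -1.81, all called. LXR and sterol efflux genes, with 0 calls at 180 min, had 6 of 10 lower in growing cells. Leaving out 1 array of this comparison gave between 366 and 1994 calls.

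**Figure D5:**
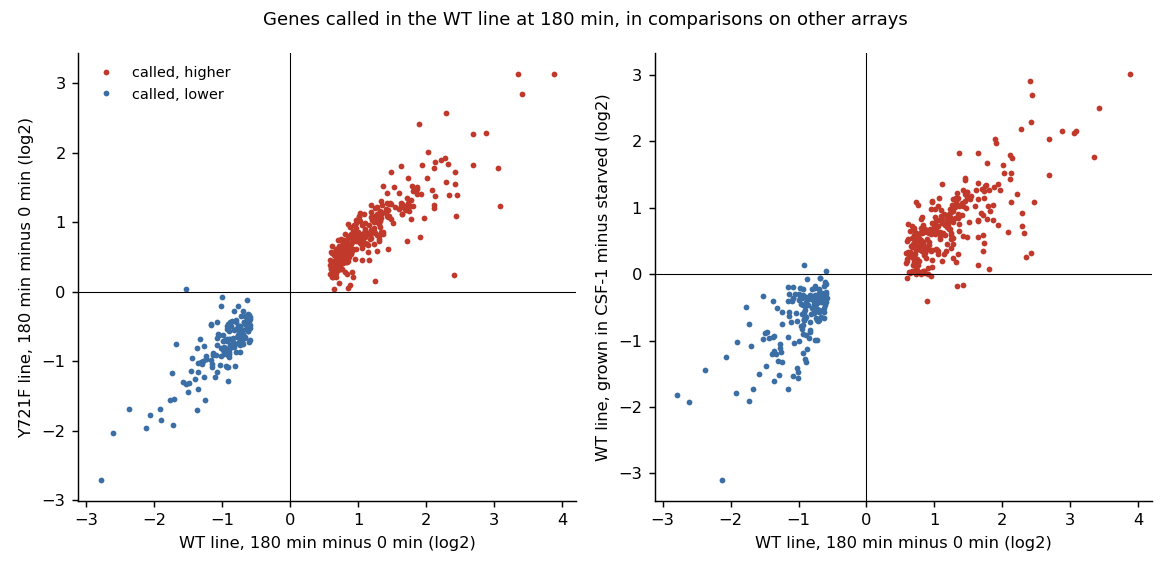
Differences of the genes called at 180 min in the WT line (horizontal axis, log2; red for the 275 rises, blue for the 156 falls) against the same genes' difference in the Y721F line at 180 min (left, vertical axis, log2) and in WT cells grown in CSF-1 against starved (right). All rises and 155 falls keep their sign on the left, and 268 rises and 154 falls keep it on the right; genes were chosen by the horizontal axis.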

How the data were processed

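Total RNA was read on Affymetrix Mouse Gene 1.0 ST arrays, 1 per RNA preparation. The authors deposited log2 signals for 35556 probe sets; that they are log2 was read from the values, and the summarization, normalization and build are not given in any source used here. Per the series' design text, RNA had an integrity number above 9.5, and limma was used with a fold above 1.5 and p under 0.05.

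From these values, 21789 probe sets that the platform table pairs with 1 gene were used, 1621 with several genes and 12146 without an entry were left out, and the brightest probe set stood for each of 19938 genes. Symbols were checked in RefSeq (19856 matched). With limma 3.58.1 in R 4.3.3 (lmFit, eBayes), 8 group means were fitted to the 16 time course arrays without a block (8 residual and 3.48 prior degrees of freedom). Starved and grown arrays were fitted separately. The precision is limited by 2 arrays per group, and p-values measure the spread between these arrays. Within the WT line, deviations of same-numbered arrays from their group means correlated between 0.487 and 0.734 across genes over 6 pairs of times, so the numbers pair the arrays; the block is the series number within each line.

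The members and lists (42, with 842 genes, 784 measured, and 9 more made after seeing values) were chosen with earlier results of these data known. Named genes are the 20 largest called rises and falls whose arrays do not overlap, up to 5 called members per list with the largest change, genes called in every leave-one-out fit, the 8 largest called changes each way from 60 to 180 min, the 5 largest differences of response each way, 2 members of each list without a call, and Csf1r, Myc, Ccnd1, Tnf, Il1b, Il6, Arg1, Egr1, Fos, Pdcd4, Spry1, Spry2 and Irf8; others are marked in the text. The fit was tested on simulated data. Alternatives were the block, the WT arrays or the 4 arrays alone, quantile normalization, no dim genes, the mean of probe sets, the series text's cutoff and leaving out each array.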

Additional observations from a re-analysis of the deposited data

How the results depend on the processing

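For the WT line at 180 against 0 min (431 genes called), the count stayed within 1.5 times after quantile normalization (430), without the 20% dimmest genes (494 of 15950) and with the mean of a gene's probe sets (416). It moved to 1557 with the series number as a replicate block, to 2 with the 8 WT arrays alone, to 1288 with those arrays and the block, to 206 with the 4 arrays alone and to 1415 with the cutoff of the series text. Leaving out 1 array gave 6 to 163 calls, where the group left with 1 array is assumed to vary like the others. The 180 against 60 min count (5) moved to 52 with the block and to between 0 and 10 without 1 array, and that of Y721F (52) to 1074 and to between 0 and 86; the 3 Y721F fits with 0 calls had 1375, 1521 and 2173 genes at an unadjusted limma p under 0.05. The difference of responses stayed at 0 by limma in all 11 fits, with between 216 and 834 genes at an unadjusted p under 0.05. Growing against starved WT cells (1060) gave 1333 with the block and 366 to 1994 without 1 array. Of the 160 named genes 120 were called and 40 were not. Of the 120, 4 lost their call after quantile normalization and 2 with the mean of probe sets. With the 8 WT arrays alone 119 of the 120 lost it, and with the 4 arrays alone 63. Of the 40, 17 gained a call with the block. In no alternative did a called difference change sign. Fits without an array have fewer samples by construction; the cause of the other moves was not tested. No depth applies to arrays, and 2 called genes, Ipcef1 and Mir687, lay below the 20th percentile of signal.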

Other observations

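Across the 275 genes that rose by 180 min in the WT line, the median difference from the 0 min arrays was 0.30 at 20 min, 0.76 at 60 min and 1.08 at 180 min. For the 156 that fell it was -0.14, -0.49 and -0.91. The 3 times share their 0 min arrays and the genes were chosen at 180 min, so these values are a description. Where 4.63% of all genes rose with the block, mitochondrial ribosome genes (Mrpl and Mrps) had 8 of 77 rise. Without it 0 of them were called, and their median was 0.23. Proteasome genes (Psm) had 0 of 50 called, 4 rises with the block and a median of 0.19. Both were at 0 by limma's adjusted p without the block, and Rpl and Rps genes, with a median of -0.035, did not share these values. Mir687, the 1 microRNA gene that fell, measured -0.17 at 20 min and -1.09 at 60 min.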
